A study of Mus musculus with 45 samples.

Results

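The 44 mouse collagen genes whose symbols follow the pattern Col, number, a, number were followed through 45 RNA-seq libraries of embryonic stem cells (mESCs), and are 44 of the 55401 genes in the tables. Collagens are secreted or membrane-anchored proteins in which 3 chains wind around each other, and every turn of that helix needs a glycine, the smallest amino acid, in the inner position. Fibrillar collagens such as types I, III and V form the tensile fibres of connective tissue and are made mainly by fibroblasts. Type IV collagen forms the sheet-like network of basement membranes, and the early embryo and its extraembryonic endoderm make it before any fibre-forming tissue exists. The genes were read as 3 feeder collagens (Col1a1, Col1a2 and Col3a1), 6 type IV genes (Col4a1 to Col4a6) and 35 others, a division given in advance and checked below against markers of fibroblasts and of mESCs.

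The libraries made 15 groups of 3 in 4 experiments, all in serum and leukemia inhibitory factor. In the time course (12 libraries), 3 clones of EHMT2-dTAG-mCherry mESCs of the BL6/129 background, in which both the treated and the control cells carry a degradable, mCherry-tagged form of the histone methyltransferase EHMT2, received DMSO or the degrader dTAG-13 for 24 h or 7 d. In the washout experiment (9 libraries), the same clones received DMSO or dTAG for 15 d, or 7 d of dTAG and then 8 d after its removal (Recovery). In the sorting experiment (12 libraries), EHMT2-dTAG cells that also carry a GFP reporter driven by the MERVL repeat received either agent for 72 h. They were then sorted on GFP from the same cultures into GFP-negative cells (sorted mESCs) and GFP-positive 2-cell-like cells (2CLCs). In the Dppa4 experiment (12 libraries), wild-type J1 (WT) and Dppa4 knockout (KO) mESCs, 3 independent clones of each according to the labels, were given DMSO or, as a small-molecule block of EHMT1/2 activity, UNC0638 over 48 h. According to the study's methods, mESCs were grown over mitomycin C-treated mouse embryonic fibroblasts on gelatin, so bulk RNA can hold fibroblast RNA. The study describes a scatter gate against feeder cells for a flow cytometry analysis, and whether these sorts used it is not given in the sources used here. In bulk samples fewer cells of a type and less RNA per cell cannot be told apart.

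Single-library values were used for the Dppa4 experiment, with 8399885 to 12710949 gene reads per library. For the other 3 experiments the group means of the authors were used, which carry no replicate spread, so their differences are given as descriptions without a test. All levels are normalized counts, that is reads divided by a size factor for each library, and each experiment was normalized on its own. Dppa4 was at 0 in all 6 KO libraries and between 700.4 and 920.5 in the 6 WT libraries. Ehmt2 mRNA stayed between 546.1 and 691.0 in the time course and washout means; the degrader removes the protein, so the transcript does not check the treatment. Of the 6 markers of the 2-cell-like state, the summed level was 457.1 in sorted DMSO mESCs and 82862 in sorted DMSO 2CLCs.

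The repeating glycine can be read in the genes themselves, because much of the helix is coded by exons of 54 bases, many of them runs of glycine-X-Y triplets. Across the 44 genes, 469 of 2005 coding exons had this length, counted by length alone, in the GENCODE M21 annotation of GRCm38. Col1a1 had 21 of them among 51 coding exons, Col1a2 had 24 of 52, Col3a1 24 of 51 and Col5a2 24 of 54. In the type IV genes the pattern is sparser, with 2 of 52 in Col4a1 and 1 of 47 in Col4a2, and Col26a1 had 0 of 13. The earliest 54-base exon with glycine at every 3rd codon and at no other is shown for each of 6 genes the results turn on, since it shows the repeat that defines the family. Each is printed in the sense of the gene, with the glycine codons in capitals.
Col1a1 exon 9: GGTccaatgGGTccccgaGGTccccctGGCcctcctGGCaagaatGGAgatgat
Col1a2 exon 8: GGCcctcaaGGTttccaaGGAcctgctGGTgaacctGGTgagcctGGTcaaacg
Col3a1 exon 6: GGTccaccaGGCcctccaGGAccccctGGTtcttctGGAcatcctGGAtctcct
Col5a2 exon 6: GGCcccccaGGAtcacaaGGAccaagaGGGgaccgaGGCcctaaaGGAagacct
Col4a1 exon 7: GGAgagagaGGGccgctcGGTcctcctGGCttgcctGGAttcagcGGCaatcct
Col4a2 exon 17: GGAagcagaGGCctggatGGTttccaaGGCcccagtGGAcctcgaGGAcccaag
These exons lie at chr11:94940118-94940171 (plus strand), chr6:4515481-4515534 (plus), chr1:45325360-45325413 (plus), chr1:45434892-45434945 (minus), chr8:11245211-11245264 (minus) and chr8:11413979-11414032 (plus) of GRCm38. All 6 hold 6 glycine codons in 18.

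The positions of the genes also matter for how they can be read. Col4a1 (chromosome 8, 11198423 to 11312826, minus strand) and Col4a2 (11312805 to 11449287, plus strand) stand head to head and overlap by 22 bases at their starts. Col4a4 and Col4a3 stand head to head 71 bases apart on chromosome 1, and Col4a6 and Col4a5 stand head to head 1308 bases apart on chromosome X. Each pair codes chains that are assembled together in basement membranes. Col3a1 and Col5a2 lie tail to tail on chromosome 1 with 24614 bases between them. In all, 3 of the 44 genes had an exon on the same strand as another gene (Col3a1 with Gm47302, Col7a1 with Mir711, Col20a1 with BX649560.1), and reads there could be split between them. A further overlap, with an exon opposite another gene, was found in 10, among them Col5a1, Col9a3 (with Tcfl5) and Col10a1 (with Nt5dc1). Whether the counting told the strands apart was not checked, so reads there could be misassigned too.

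Short exons bear on the measurement, because reads were aligned without splicing and a read that crosses an exon boundary could not be placed. The share of a gene's exonic bases that lie in blocks at least as long as a 100-base read had a median of 77.64% over the collagens and 97.47% over 21951 protein-coding genes. For 150-base reads, used in the sorting and Dppa4 experiments, the medians were 64.2% and 91.63%. Col7a1, with 118 coding exons, had 28.6% of its bases in blocks of at least 150, Col1a1 53.8% and Col4a1 59.7%. Col8a1, with 2 coding exons, had 98.5%. These are shares of bases, and the share of reads that could be placed whole was not computed and can be lower. Levels of different collagens, and of 1 collagen between experiments of different read length, therefore do not compare directly; a gene within an experiment does.

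**Figure D1:**
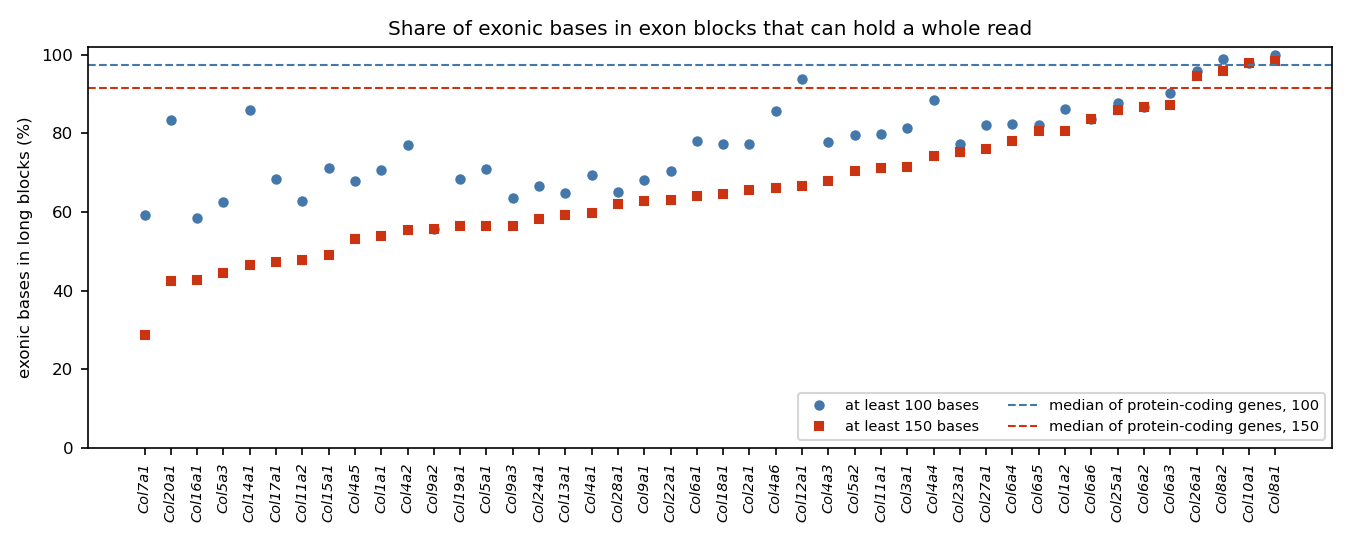
Percent of each collagen gene's exonic bases that lie in blocks of at least 100 or at least 150 bases, with dashed lines at the medians of protein-coding genes (97.47% and 91.63%). Most collagens sit below those lines, with Col7a1 lowest at 150 bases (28.6%) and Col8a1 near the top (98.5%).

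Per kilobase of exon, Col18a1 had the highest level of the collagens in WT DMSO and in sorted DMSO mESCs. These levels are not corrected for bases in short exons (64.4% of the bases of Col18a1 lie in blocks of at least 150 bases), so the order of genes is a description. It codes the core of a basement membrane proteoglycan and the precursor of endostatin. Its level per kilobase was 338.8 in WT DMSO, against 76.3 for Col1a1, 69.0 for Col4a2, 59.2 for Col4a1, 54.3 for Col5a1 and 44.0 for Col1a2. In sorted DMSO mESCs it was 143.5, followed by Col4a1 at 23.1, Col9a2 at 20.7 and Col4a2 at 19.9, with Col1a1 at 12.0 and Col1a2 at 7.39. Col9a3 (15.8), Col5a1 (12.8) and Col13a1 (12.3) also stood above Col1a1 there. WT are J1 cells and the sorted cells carry the EHMT2-dTAG allele, in separately normalized tables, so the positions in the 2 lists are not compared.

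Of the 44 genes, 35 reached a mean of 10 normalized counts in at least 1 of the 11 group means. The other 9 (Col4a3, Col4a4, Col4a6, Col9a1, Col15a1, Col19a1, Col24a1, Col25a1 and Col28a1) stayed under 10 in all of them. Of the type IV genes only the Col4a1, Col4a2 and Col4a5 chains were therefore measurable; Col4a3, Col4a4 and Col4a6 had at most 5.43 normalized counts in any group. In the Dppa4 experiment 43 of the 44 had a read, all but Col28a1.

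The naming of Col1a1, Col1a2 and Col3a1 as feeder collagens was set against 17 fibroblast markers outside the family. Their summed level ran from 4240 to 9764 in the time course and washout means and from 779.1 to 3806 in the sorted ones, tables that were normalized separately and so do not compare. Ccn2 made much of these sums, 78.3% in DMSO at 24 h and 23.0% to 66.1% in the other 10 means. Without Ccn2 the sums ran from 1612 to 6862 in the time course and washout means and from 522.6 to 1972 in the sorted ones. In each comparison of means below, 12 to 14 of the 17 markers had a mean of at least 10 in the higher group. Some members were low: Lum and Fap were at most 1.82 and Dcn at most 20.5 in those 11 means. The 6 pluripotency markers summed to 24166 to 52156. The type IV genes, named as collagens of the mESCs themselves, had a median difference of the same sign as the feeder collagens in 9 of the 10 comparisons of means below, all but that of the DMSO groups, so the data do not part the groups cleanly.

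EHMT2 degradation was read first in the time course. At 24 h of dTAG, 6 of 31 measurable collagens were higher than in DMSO by 2-fold or more and 4 were lower, where 3.58% of 18451 genes were higher and 2.11% lower. Measurable here means a mean of at least 10 in the higher group, and differences are log2 of the ratio of the means after adding 1. Higher were Col6a5 (56.3 against 9.08, a log2 difference of 2.51) and Col6a4 (1.12), both beaded-filament chains, Col4a5 (51.4 against 20.7, 1.27), the fibrillar Col11a1 (1.23) and the fibril-associated Col22a1 (1.05). Lower were Col20a1 (-1.52), Col26a1 (-1.20), Col6a1 (-1.05), an obligate chain of type VI collagen, and Col11a2 (-1.02).

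The abundant chains stood apart by smaller amounts at 24 h. Col1a1 was 1045 in dTAG and 750.7 in DMSO (0.48) and Col1a2 498 and 327 (0.60). Col3a1 went the other way, 58.1 and 105 (-0.85). Col4a1 was 1219 and 822 (0.57), Col4a2 883 and 701 (0.33). Fibroblast markers had a median log2 difference of 0.23 and a summed level of 6573 in dTAG and 7411 in DMSO, which turns to 2231 and 1612 without Ccn2, a step added after the values were seen, and the endoderm markers had a median of 0.95; their part in the collagen differences was not tested.

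After 7 d, 3 of 32 collagens were higher in dTAG by 2-fold or more and 4 lower, with 5.38% and 4.56% of 18602 genes. Higher were Col6a5 (85.2 against 24.3, 1.77), Col5a2 (304 against 97.5, 1.63), which codes the partner chain of type V collagen, and Col3a1 (81.6 against 34.6, 1.21). Lower were Col17a1 (-1.34), a hemidesmosome collagen, Col20a1 (-1.16), Col5a3 (-1.14) and Col11a2, at the 2-fold limit. Col3a1 and Col5a2, the tail-to-tail neighbours, were thus both higher at 7 d, but Col3a1 was lower (-0.85) and Col5a2 higher by 0.36 at 24 h. The summed fibroblast markers were 7585 in dTAG and 4240 in DMSO at 7 d (3508 and 1634 without Ccn2), and 5 of their 13 measurable members were 2-fold or more higher. The endoderm markers had a median of -0.11 at 7 d, with 2 of 6 above 0 and 4 below, beside a type IV median of 0.41. The part of either marker list in the collagen differences was not tested.

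The DMSO groups of the time course show how far collagens moved without the degrader. Between 24 h and 7 d of DMSO, 1 of 32 collagens was higher by 2-fold or more and 5 were lower, beside 0.862% and 1.49% of 18204 genes. Col3a1 was 105 at 24 h and 34.6 at 7 d (-1.58), Col6a1 150 and 49.2 (-1.59) and Col6a2 103 and 38.1 (-1.41), and Col26a1 (-1.14) and Col20a1 (-1.13) were lower too. Col6a5 was higher (1.33). The fibrillar Col3a1 and the type VI chains therefore differed between control groups by as much as most dTAG differences, while Col1a1 (-0.16), Col1a2 (-0.07), Col4a1 (0.27) and Col4a2 (0.07) did so little.

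**Figure D2:**
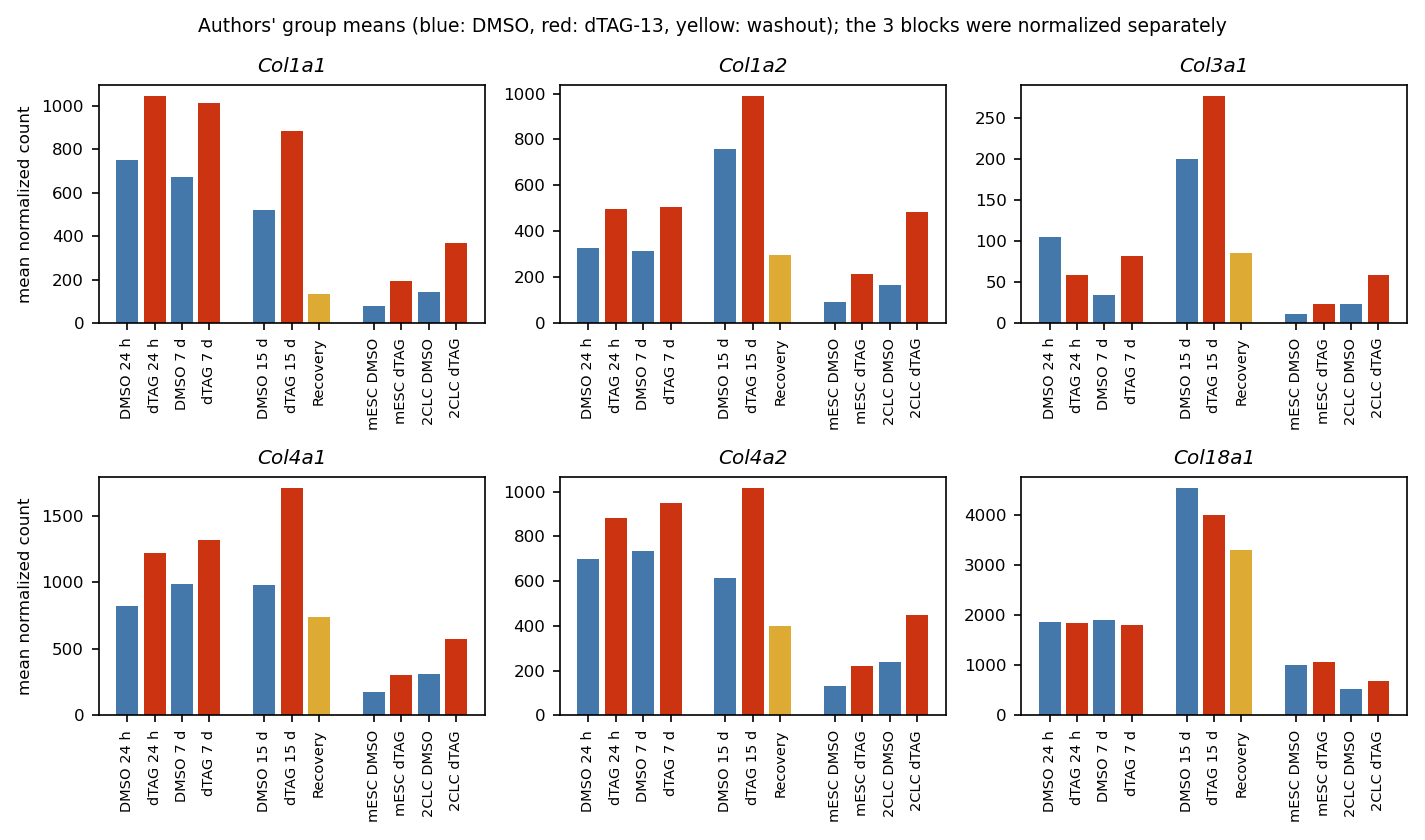
Normalized counts (authors' group means, no error available) of Col1a1, Col1a2, Col3a1, Col4a1, Col4a2 and Col18a1 in 11 groups; blue is DMSO, red dTAG and yellow Recovery. Col1a1 is lowest of the unsorted groups in Recovery (135.8), and Col18a1 is the only gene shown whose 2CLC bars (528.1 and 683.4) stand below the sorted mESC bars (1007 and 1075).

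At 15 d, collagens were higher in dTAG almost throughout. Of 32 measurable genes, 30 were above 0 and the median log2 difference was 0.47, beside -0.02 over all 17869 genes. Past 2-fold, 4 were higher and 0 lower, with 5.48% and 0.856% of all genes. These were Col14a1 (1.57), a fibril-associated collagen at low level, Col6a4 (1.38), Col22a1 (1.15) and the cartilage collagen Col2a1 (166 against 76.7, 1.11). Col4a1 was 1706 and 977 (0.80), Col4a2 1016 and 616 (0.72) and Col1a1 886 and 520 (0.77). The fibroblast markers had a median of 0.24 with 0 of 14 past 2-fold, and the endoderm markers a median of 0.93.

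The washout asked whether levels returned after 8 d without the degrader. In Recovery 0 of 30 collagens were higher and 9 were lower than in DMSO at 15 d by 2-fold or more, where 1.60% of 17365 genes were higher and 1.25% lower. Col1a1 was 135.8 in Recovery, 519.8 in DMSO and 885.8 in dTAG, which puts Recovery 3.81-fold under the untreated cells (-1.93) rather than between the other groups. Col1a2 was 296, 759 and 990 (-1.36 against DMSO), Col3a1 85.6, 200 and 277 (-1.22) and Col5a2 128, 315 and 416 (-1.29). Col6a3 (-1.52) and Col6a1 (-1.30), chains of the type VI microfibril, were lower too.

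The type IV genes were also lowest in Recovery, by less. Col4a1 was 738 in Recovery against 977 in DMSO (-0.40), Col4a2 399 against 616 (-0.63) and Col4a5 19.6 against 35.5 (-0.82). Against dTAG, 18 of 32 collagens were lower by 2-fold or more and 0 higher, with 6.99% of 17936 genes lower and 1.44% higher, and 31 of 32 were below 0. The largest differences were in Col1a1 (-2.70), Col14a1 (-2.60), Col6a3 (-2.22), Col1a2 (-1.74) and Col5a2 (-1.69). Col18a1 was 3300 in Recovery, 4546 in DMSO and 4000 in dTAG. Fibroblast markers moved with these differences: their summed level was 4632 in Recovery, 8603 in DMSO and 9764 in dTAG, 7 of 14 were lower than in DMSO by 2-fold or more, and their median was -1.02. The pluripotency markers had a median of 0.02. The part of fibroblast RNA in the Recovery values was not tested.

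In the sorting experiment, most collagens were higher in 2CLCs than in sorted mESCs, in a comparison in which many genes were. In DMSO 8 of 30 collagens were higher and 1 lower by 2-fold or more, with 17.0% and 9.42% of 18303 genes, and the collagen median was 0.65 against -0.02 over all genes. Higher were Col20a1 (49.9 against 6.74, 2.72), Col23a1 (1.87) and Col13a1 (164 against 56.8, 1.51), both membrane-spanning collagens, Col22a1 (1.77) and Col6a1 (1.39). Lower was Col5a3 (13.5 against 44.3, -1.64). With dTAG, 9 of 28 were higher and 1 lower in 2CLCs, beside 16.0% and 7.55% of 18244 genes. Col20a1 (1.93), Col6a1 (1.60), Col8a1 (1.37), Col12a1 (1.35) and Col3a1 (1.27) led, and Col5a3 was again lower (-1.36).

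The feeder and type IV genes were higher in 2CLCs to a like degree. In DMSO, Col1a1 was 144 in 2CLCs and 78.6 in mESCs (0.87), Col1a2 166 and 91.8 (0.85), Col4a1 312 and 172 (0.86) and Col4a2 239 and 132 (0.86). Col18a1 was lower in 2CLCs, 528 against 1007 (-0.93) in DMSO and 683 against 1075 (-0.65) in dTAG. The fibroblast markers summed to 2123 in DMSO 2CLCs and 779.1 in mESCs, with a median of 0.76, and the endoderm markers had a median of 1.59. Their part in the 2CLC values was not tested.

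Within each sorted population most collagen means were higher with dTAG. In sorted mESCs 12 of 29 were higher and 1 was lower by 2-fold or more, with 5.93% and 2.58% of 17142 genes. Col10a1 led from a low level (16.0 against 1.33, 2.87), followed by Col6a5 (48.6 against 13.01, 1.82), Col4a5 (1.52), Col6a3 (1.43) and Col1a1 (194 against 78.6, 1.29), and Col8a2 was lower (-1.08). In sorted 2CLCs 12 of 31 were higher and 3 lower, with 5.99% and 3.04% of 18281 genes. Col11a1 (1.66), Col8a1 (339 against 111, 1.60), Col4a5 (1.57), Col1a2 (483 against 166, 1.53) and Col12a1 (1.46) led. Lower were Col8a2 (1.11 against 14.1, -2.84), Col23a1 (-2.30) and Col20a1 (-1.01).

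Within these sorted groups the medians were 1.22 for the feeder collagens and 0.83 for the type IV genes in mESCs, and 1.35 and 0.91 in 2CLCs. Of the 13 measurable fibroblast markers 9 and 8 were higher by 2-fold or more, with medians of 1.21 and 1.25, close to those of the feeder collagens. Their sums in dTAG were 1646 in mESCs and 3806 in 2CLCs. The endoderm markers had medians of 0.50 in mESCs and 0.35 in 2CLCs. The part of either marker list in the collagen values was not tested.

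There were 5 comparisons of dTAG with DMSO that share no library: 24 h, 7 d, 15 d, sorted mESCs and sorted 2CLCs, although the sorted populations came from the same cultures and the bulk groups from the same clones. Of the 27 collagens measurable in all 5, 14 (51.9%) were higher in every one, while 9.08% of 14922 genes were. They were Col1a1, Col1a2, Col2a1, Col4a1, Col4a2, Col4a5, Col5a1, Col5a2, Col6a3, Col6a4, Col6a5, Col8a1, Col11a1 and Col12a1. Only Col17a1 (3.7%) was lower in all 5, beside 8.16% of all genes. Col3a1 was left out of the 14 by its 24 h value. Col18a1 differed by -0.02, -0.06, -0.18, 0.09 and 0.37 in the 5 comparisons.

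**Figure D3:**
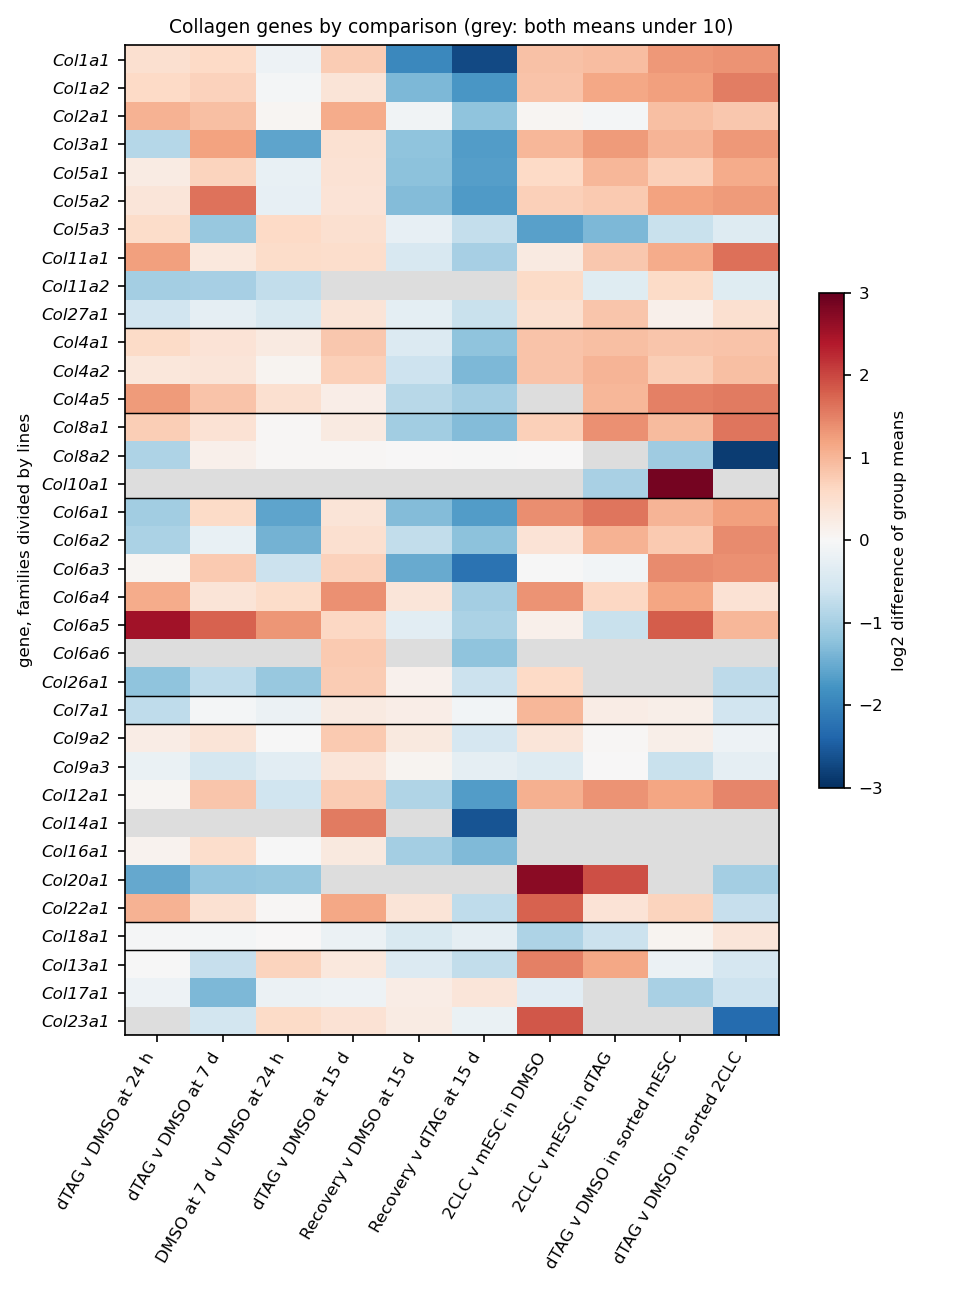
Log2 differences of group means for the 35 collagens that reach 10 normalized counts in at least 1 group, in 10 comparisons, with red higher and blue lower in the group named first; grey marks genes whose means are both under 10, and lines divide the families. The columns of Recovery are blue for most fibrillar and type VI genes, for example Col1a1 at -1.93 and -2.70, and the sorted dTAG columns are mostly red.

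The Dppa4 experiment is the one in which each library could be tested. Of the 44 collagens, 29 passed the filter on low counts, and 15 did not (Col4a3, Col4a4, Col4a6, Col6a6, Col9a1, Col10a1, Col11a2, Col14a1, Col16a1, Col17a1, Col19a1, Col20a1, Col24a1, Col25a1 and Col28a1). A gene was called when its limma adjusted p (Benjamini-Hochberg over 17258 genes) was under 0.05 and it differed by 2-fold or more. With 3 clones per group as the labels state, the p-values measure the spread between these libraries.

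Most collagens had lower values in Dppa4 KO than in WT cells. In DMSO 25 of 29 were below 0, as were 52.07% of all genes, and the median log2 fold change was -0.64 beside -0.03 over all genes, although only 1 collagen met the call. That gene, Col26a1, rose (1 of 29 higher and 0 lower, beside 1.33% and 3.10% of all genes). It codes an extracellular protein with short collagen stretches. Its level was 113, 17.2 and 68.2 in WT and 255, 388 and 230 in KO, so that every KO library was above every WT library. The log2 fold change was 2.44 (SE 0.60, limma adjusted p = 0.023). It lost the call without WT DMSO replicate 2 (1.68, adjusted p = 0.11), without KO DMSO replicate 1 (2.52, adjusted p = 0.070) or without KO DMSO replicate 2 (2.22, adjusted p = 0.088). With the replicate number as a block 2 collagens were called, Col26a1 (adjusted p = 0.0087) and Col5a2 (-1.29, adjusted p = 0.033).

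The feeder collagens were lower in KO DMSO without meeting the call. Col1a1 was 444, 611 and 446 in WT and 311, 282 and 389 in KO (-0.61, SE 0.22, limma adjusted p = 0.10). Col1a2 was 469, 694 and 479 in WT and 294, 376 and 341 in KO (-0.68, SE 0.20, adjusted p = 0.055). Col3a1 was 78.0, 122 and 151 in WT and 48.9, 49.9 and 60.4 in KO (-1.08, SE 0.36, adjusted p = 0.082). In all 3 the WT and KO libraries did not overlap. Over the family 9 of 29 collagens had every KO library under every WT library and 1 had every KO library above, beside 16.1% and 13.5% of all genes. Col5a2 was 162, 252 and 177 in WT and 31.3, 110 and 139 in KO.

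Type IV chains showed the same order of size. Col4a1 was 468, 523 and 336 in WT DMSO and 201, 339 and 245 in KO DMSO (-0.76, SE 0.29, limma adjusted p = 0.12), and these libraries overlapped at 336 and 339. Col4a2 was 337, 646 and 387 in WT and 234, 304 and 323 in KO (-0.63, SE 0.29, adjusted p = 0.20), with no overlap. Col4a5, at 12.2 to 56.6 in WT and 13.2 to 31.3 in KO, was not distinguishable at this depth (-0.73, adjusted p = 0.42). Col18a1 was 2390, 2223 and 2523 in WT and 2693, 2271 and 2123 in KO, a difference of -0.02 with a 95% interval of -0.37 to 0.34.

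Under UNC0638 most collagens were again below 0 in KO against WT. Of 29 collagens 24 were below 0, the median was -0.54, and 0 were called higher and 0 lower, beside 0.973% and 2.31% of all genes. At an unadjusted p under 0.05 there were 8, beside 3460 of 17258 genes. edgeR also called 0 collagens, while DESeq2 called 1 (Col8a1, -1.32), beside 239 higher and 629 lower of 17255 genes. Col8a1, a short-chain collagen of Descemet's membrane and vessel walls, was 142, 171 and 117 in WT and 52.4, 76.3 and 45.4 in KO (-1.30, SE 0.37, limma adjusted p = 0.056). Col26a1 was 140, 21.5 and 52.7 in WT and 201, 224 and 179 in KO (1.86, SE 0.60, adjusted p = 0.087, or 0.043 with the replicate block). With the libraries of both groups apart there were 9 lower and 2 higher collagens, beside 12.6% and 11.6% of all genes.

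With both treatments averaged, a comparison of 6 WT with 6 KO libraries that was added after the values were seen, 3 collagens met the call. Of all genes 1.89% were called higher and 5.35% lower. Col26a1 rose (2.15, SE 0.42, limma adjusted p = 0.0027), and Col8a1 (-1.14, SE 0.26, adjusted p = 0.0077) and Col5a2 (-1.07, SE 0.30, adjusted p = 0.021) fell. edgeR and DESeq2 called 2, Col26a1 and Col8a1, with Col5a2 under 2-fold in both (-0.95 and -0.96). Libraries of both treatments may share a clone, in which case these p-values are too small. With the same-numbered libraries of a genotype averaged to 1 value, 3 against 3, the same 3 genes were called, with limma adjusted p of 0.015 for Col26a1, 0.012 for Col8a1 and 0.047 for Col5a2. Same-numbered KO libraries correlated at only -0.099 to 0.197, so for KO the average may join different clones and cannot settle that limit. Without regard to fold, 1 was higher and 10 were lower at an adjusted p under 0.05, beside 7.13% and 9.52% of all genes. The 10 held all 3 feeder collagens and both abundant type IV chains, next to Col5a1, Col5a2, Col6a3, Col8a1 and Col12a1.

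In that average the feeder and type IV chains differed by like amounts. Col1a2 differed by -0.58 (SE 0.14, limma adjusted p = 0.012), Col3a1 by -0.91 (SE 0.26, adjusted p = 0.023) and Col1a1 by -0.46 (SE 0.15, adjusted p = 0.048). Col4a1 differed by -0.73 (SE 0.21, adjusted p = 0.024) and Col4a2 by -0.70 (SE 0.21, adjusted p = 0.028). With same-numbered libraries averaged, Col1a1 (limma adjusted p = 0.12) and Col4a2 (adjusted p = 0.060) missed 0.05. Col12a1, a fibril-associated collagen, was 190 to 314 in the 6 WT and 98.9 to 183 in the 6 KO libraries (-0.96, adjusted p = 0.0044). Col5a1, the main type V chain, was 376 to 538 and 235 to 345 (-0.65, adjusted p = 0.0066).

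In the same average 4 collagens (Col1a2, Col4a2, Col5a1 and Col12a1) had all 6 KO libraries under all 6 WT libraries and 1, Col26a1, had them above, beside 3.51% and 2.33% of all genes. Col5a2 lost the call without WT DMSO replicate 2 (adjusted p = 0.060), WT UNC0638 replicate 2 (adjusted p = 0.054), KO DMSO replicate 1 (-0.75) or KO UNC0638 replicate 1 (-0.98), and Col8a1 without KO DMSO replicate 2 (-0.95). Col26a1 kept it in all 12 such fits.

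Col17a1 did not pass the filter but was read in 32 reads over the 3 WT DMSO libraries (23.3, 3.69 and 7.87 normalized counts) and in 0 over the 3 KO DMSO libraries. Against a floor of 3 reads over the KO group it was at least 11.0-fold lower there. Of the 32 reads 20 came from WT DMSO replicate 1, and without that library it was at least 5.49-fold lower. Under UNC0638 it was 8.80, 9.34 and 4.79 in WT and 1.84, 4.30 and 0.873 in KO.

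**Figure D4:**
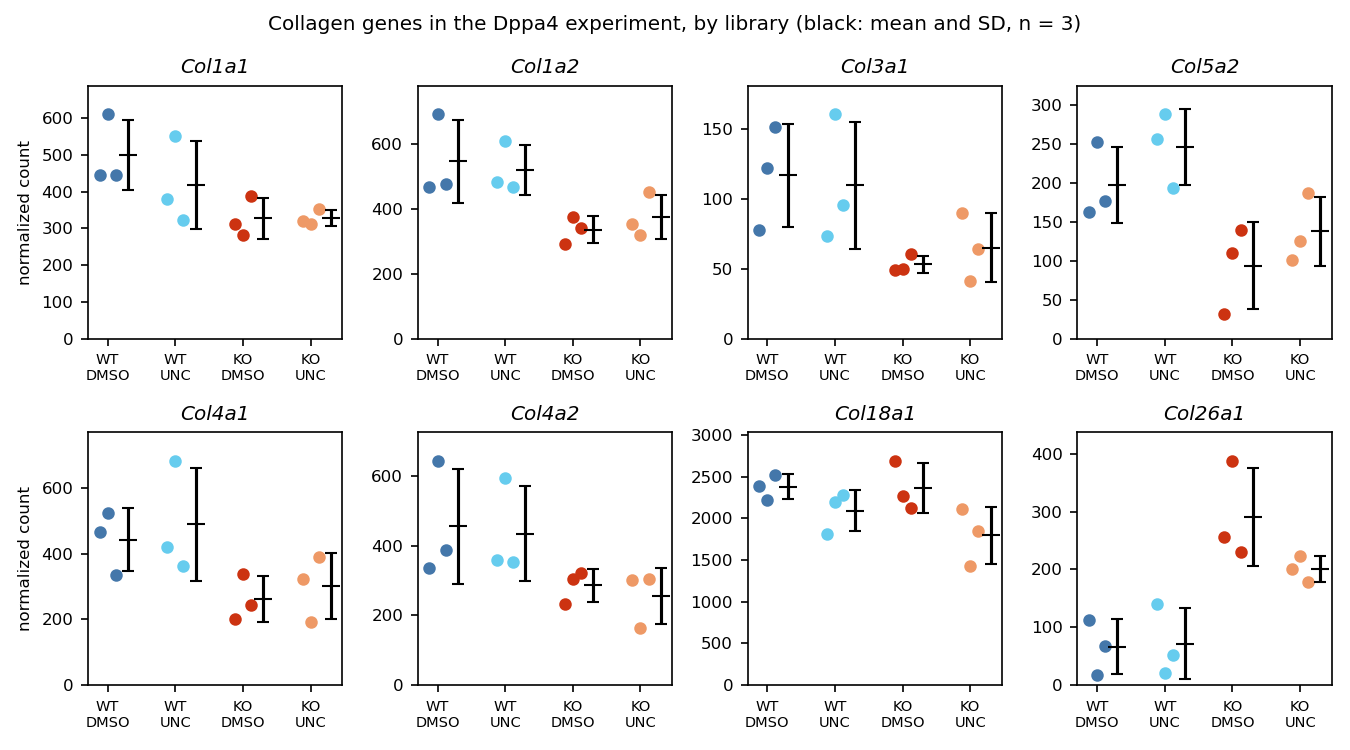
Normalized counts of 8 collagens in the 12 libraries of the Dppa4 experiment, 1 point per library, with the mean and SD of each group of 3; every panel starts at 0. Col1a2 and Col4a2 are lower in all 6 KO libraries than in all 6 WT ones, and Col26a1 is higher. For Col18a1 the WT and KO libraries overlap in both treatments.

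Fibroblast markers were lower in KO as well. All 14 that passed the filter were below 0 in DMSO with a median of -1.23, and 6 fell (Thbs2, Acta2, Ccn2, Tagln, Prrx1 and Twist2). Under UNC0638 all 14 were below 0 as well, with a median of -0.73 and none past the call. The summed level of the 17 markers was 5377 to 8609 in WT DMSO, 4582 to 6311 in WT UNC0638, 2282 to 3354 in KO DMSO and 2693 to 4106 in KO UNC0638, with Lum and Fap at no more than 2.62 in any library. The pluripotency markers summed to 38593 to 49619 in WT DMSO and 53656 to 55223 in KO DMSO. The part of fibroblast RNA in the KO values was not tested.

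UNC0638 left no collagen past the call. In WT 0 of 29 were called by limma, edgeR or DESeq2. In the main limma fit, which holds no pairing, 0 had an unadjusted p under 0.05, beside 1504 of 17258 genes. With the replicate block 2 did, beside 2107 genes. A pairing within WT alone was not fitted. Over all genes 0% were called in either direction by limma. The feeder collagens differed by -0.28 (95% interval -0.74 to 0.18) for Col1a1, -0.06 (-0.49 to 0.38) for Col1a2 and -0.12 (-0.88 to 0.65) for Col3a1, and Col4a1 by 0.12 (-0.51 to 0.74). A 2-fold difference lies outside all 4 of these intervals. It lies inside those of other collagens, so it is not excluded for them. On the higher side these include Col15a1 at 1.25 (-0.0051 to 2.507) and Col6a4 at 0.93 (-0.0445 to 1.905). Col8a1 at 0.716 (-0.0713 to 1.503) and Col2a1 at 0.716 (-0.112 to 1.544) are also among them. On the lower side Col8a2 is an example, at -0.68 (-1.543 to 0.182). Of the 29 collagens, 13 were above 0 and 16 below.

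In KO, UNC0638 called 0 of 29 collagens by limma and edgeR, beside 0.411% of genes higher and 0.0521% lower by limma. At an unadjusted p under 0.05 there were 4 (Col2a1, Col6a4, Col6a5 and Col18a1), beside 2664 of 17258 genes. Col6a5 was 22.5, 22.4 and 29.0 in DMSO and 87.4, 70.95 and 41.9 in UNC0638 (1.35, SE 0.39, limma adjusted p = 0.11), with every inhibitor library above. DESeq2 on the recovered reads called it (1.45, adjusted p = 0.028). This gene was also higher in every dTAG comparison of the EHMT2-dTAG cells. The difference of the inhibitor's effect between KO and WT was called for 0 collagens by limma and edgeR and for 0% of genes by limma, and 0 collagens had an unadjusted p under 0.05; for Col6a5 it was 0.86 (95% interval -0.30 to 2.02).

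The enzymes that modify, transport, cut and crosslink collagen chains were read from a list of 32 genes. In KO against WT, 28 were tested in DMSO, 1 rose and 2 fell, beside 1.33% and 3.10% of all genes. Plod1, which hydroxylates lysines of the helix, was 396, 193 and 204 in WT and 627, 648 and 382 in KO (1.10, SE 0.28, limma adjusted p = 0.029). Pcolce2, which enhances procollagen cleavage, was 219, 260 and 203 in WT and 57.7, 69.3 and 59.2 in KO (-1.85, SE 0.27, adjusted p = 0.0011), with no overlap. P4ha3, a prolyl hydroxylase subunit, was 29.1, 28.3 and 13.1 in WT and 0.978, 9.17 and 0 in KO (-3.09, SE 0.78, adjusted p = 0.027).

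Under UNC0638 Plod1 rose again (1.22, limma adjusted p = 0.024) and Pcolce2 (-1.17, adjusted p = 0.023) and Lox (-1.03, adjusted p = 0.024), the main crosslinking oxidase, fell. P4ha3 then differed by 0.01 (adjusted p = 0.995). Averaged over treatments Loxl4 fell too (-1.07, adjusted p = 0.047). Among 15 basement membrane partners and collagen receptors, of which 13 were tested, the collagen-binding integrin subunit Itgb1 came nearest the call in DMSO (-0.99, adjusted p = 0.0058). Under UNC0638 the laminin chain Lamb1 (-1.15, adjusted p = 0.0049) and the collagen receptor Ddr2 (-1.74, adjusted p = 0.0076) fell.

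In the sorted cells some genes of these lists stood far apart by group means. Colgalt2, which adds galactose to hydroxylysine, had a mean of 1224 in DMSO 2CLCs and 6.99 in DMSO mESCs (7.26), and of 2208 and 61.7 with dTAG (5.14). P4ha2, a prolyl 4-hydroxylase subunit, was 2890 and 108 (4.73) in DMSO and 3302 and 240 (3.78) with dTAG, and Ddr2 537 and 32.6 (4.00), then 1273 and 160 (2.99). These enzyme and receptor differences exceeded that of any collagen. Lower in DMSO 2CLCs were Pcolce (78.8 against 275, -1.79), the chaperone Fkbp10 (-1.72) and P3h4 (-1.51), with Nid1 (-1.14) and Ddr1 (-1.12) of the basement membrane and receptor list; Tll1 was higher (1.08). In DMSO 3 of 28 processing genes were higher and 3 lower by 2-fold or more, beside 17.0% and 9.42% of all genes. With dTAG 6 of 29 were higher and 1 lower, beside 16.0% and 7.55%.

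**Figure D5:**
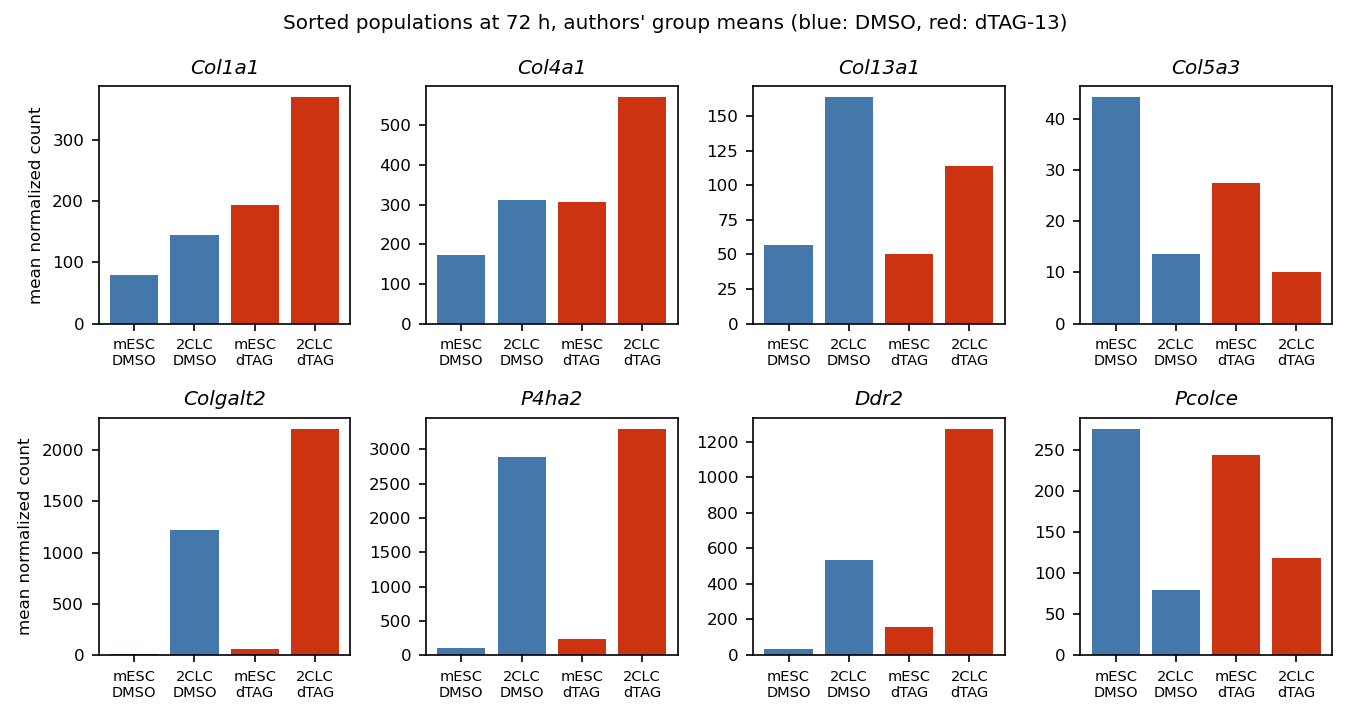
Normalized counts (authors' group means, no error available) of 4 collagens, 3 collagen-modifying genes and the receptor Ddr2 in the 4 sorted groups. Colgalt2, P4ha2 and Ddr2 are high in 2CLCs (1224, 2890 and 537 in DMSO) and low in mESCs (6.99, 108 and 32.6), while Col5a3 and Pcolce run the other way.

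Colgalt2 was also higher with dTAG in unsorted cells, at 12.9 against 2.08 at 24 h (2.17), 36.5 against 4.53 at 7 d (2.76) and 95.4 against 8.17 at 15 d (3.39). It was 13.3 in Recovery (-2.76 against dTAG). The 2-cell markers moved with it, their sum being 111.3 in DMSO and 1373 in dTAG at 24 h, 322.5 and 7743 at 15 d, and 526.4 in Recovery; their part in the Colgalt2 values was not tested. In the Dppa4 experiment it had at most 2.62 normalized counts in WT and 0 in all 6 KO libraries.

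Of the other enzymes, Tll1, a procollagen C-proteinase, was higher with dTAG at 24 h (1.47), at 7 d (1.31), in sorted mESCs (1.16) and in sorted 2CLCs (55.2 against 23.9, 1.17), while at 15 d it was 86.9 against 91.7 (-0.08). Ddr2 was higher by 2-fold or more at 7 d (302 against 78.7, 1.93) and in sorted mESCs (2.26) and 2CLCs (1.24). It was not at 24 h or 15 d, where the highest difference among the measurable genes of its list was 0.29 and 0.76. Lox was higher with dTAG in sorted mESCs (809 against 351, 1.20) and 2CLCs (2048 against 576, 1.83) and was 362, 771 and 1068 in Recovery, DMSO and dTAG at 15 d. In Recovery against DMSO, 0 of 30 processing genes were higher and 5 lower by 2-fold or more, led by Loxl4 (-1.77), Loxl3 (-1.30) and P4ha3 (-1.11). The receptor subunit Itga11 (-1.19) and the basement membrane proteoglycan Hspg2 (408 against 902, -1.14) were lower as well.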

How the data were processed

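RNA was measured by RNA-seq in 45 libraries. According to the study's methods, library preparation differed between experiments. A stranded mRNA kit served for the time course and washout, a low-input preparation for the sorted cells, and poly-A enrichment for the Dppa4 experiment. Per the labels and methods, the authors trimmed reads with Trim Galore 0.6.7, aligned them to mm10 with STAR 2.7.10 end to end and without spliced alignment, placed multimapping reads at 1 random position, counted them with TEcounts against GENCODE vM25, and scaled them with DESeq2 1.34.0. The deposited signal values are those counts divided by size factors. In the Dppa4 experiment they gave whole reads for 100% of values (tolerance 0.01), with 8399885 to 12710949 gene reads per library; the other 3 experiments were read as the authors' group means, whose depth is unknown. The authors' fold changes and p-values, and repeat tables, were not used.

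In R 4.3.3, limma 3.58.1 with trend was fitted to log2 of the normalized count + 1 over 17258 genes kept by filterByExpr of edgeR 4.0.16, all 12 libraries together. Called genes had a Benjamini-Hochberg adjusted p under 0.05 and a log2 fold change of at least 1. edgeR and DESeq2 1.42.0 on the recovered reads, TMM scaling, other filters, pseudocounts and a replicate block were alternatives, and the fit was tested on simulated data. Group means were compared as log2 after adding 1, with the higher mean at least 10. Groups came from the labels. Deviations of same-numbered DMSO and UNC0638 libraries correlated at 0.111 to 0.49 in WT and at -0.099 to 0.197 in KO. No pairing entered the main fit. The replicate block joined the same numbers of WT and KO, whose deviations correlated at -0.0971 to 0.06 in DMSO and -0.111 to 0.136 in UNC0638. The members and gene lists were chosen with earlier results of these data known. Named were Col1a1, Col1a2, Col3a1, Col5a2, Col4a1 to Col4a6, every collagen called in the Dppa4 experiment, up to 5 each way past 2-fold in each comparison of means, and, of the other lists, genes called or up to 3 each way past 2-fold. Col18a1, Col5a1, Col12a1, Col17a1, Col6a5 under UNC0638 and the Colgalt2, Lox and Ddr2 series were singled out after their values were seen. Exons came from GENCODE M21, so the transcript models can differ from the authors' vM25.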

Additional observations from a re-analysis of the deposited data

How the results depend on the processing

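Of collagens called, KO against WT in DMSO gave 1, and 2 by DESeq2 (Col26a1, Col3a1), with genes of at least 1 read in any library (Col26a1, Col17a1) and with the replicate block (Col26a1, Col5a2). KO against WT in UNC0638 gave 0, and 1 by DESeq2 or with a pseudocount of 5 (Col8a1) and with the block (Col26a1). UNC0638 in KO gave 0, and 1 by DESeq2. The average of treatments gave 3, 2 by edgeR or DESeq2 (without Col5a2), 4 with genes of at least 1 read, and 3 with same-numbered libraries averaged, chosen after seeing the data. The block changed no other call. A library correlated best with its own number in 12 of 18 cases, where a case is 1 replicate number in 1 pair of groups. Leaving out 1 library gave 0 to 4 in DMSO, 0 to 2 in UNC0638, 2 to 5 for the average of treatments, and 0 to 0 for the other contrasts. Of group means past 2-fold, a pseudocount of 10 gave 4 in place of 10 at 24 h, 3 in place of 6 between DMSO groups, 1 in place of 4 at 15 d and 5 in place of 13 in sorted mESCs. A higher mean of at least 50 gave 4 in place of 7 at 7 d, 1 at 15 d, 3 in place of 9 for 2CLCs in DMSO, 4 in sorted mESCs and 9 in place of 15 in sorted 2CLCs, and no filter gave 14 for 2CLCs in DMSO. By construction a larger pseudocount shrinks differences of low genes and a higher minimum tests fewer genes. With 3 libraries a group, depth and spread left Col4a5 and the 15 filtered collagens untested or undecided.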

Other observations

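Type I collagen is built from Col1a1 and Col1a2 chains, and their ratio was higher in the time course than in the washout experiment. Within a library the ratio does not depend on the size factor. In a ratio of group means the size factors still set the weight of each library. Col1a1 over Col1a2 was 2.29, 2.10, 2.15 and 2.00 in the DMSO 24 h, dTAG 24 h, DMSO 7 d and dTAG 7 d means, 0.68 and 0.89 in DMSO and dTAG at 15 d, and 0.46 in Recovery. In the sorted means it lay between 0.77 and 0.90, and in the 12 libraries of the Dppa4 experiment, which are of J1 cells, between 0.687 and 1.14. Both of these experiments had 150-base reads and another library preparation, so their ratios do not compare directly with the time course. Of exonic bases, 70.7% of Col1a1 and 86.1% of Col1a2 lie in blocks of at least 100 bases. In blocks of at least 150 bases lie 53.8% and 80.7%. The time course and washout libraries are reported with the same clones and the same 100-base reads, and experiment and time cannot be told apart.

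The ratio of Col4a1 to Col1a1, a basement membrane chain over a fibrillar chain, was 1.09 to 1.47 in the time course means, 1.88 and 1.93 in DMSO and dTAG at 15 d and 5.43 in Recovery. In the sorted means it was 2.19 and 2.16 in DMSO mESCs and 2CLCs and 1.58 and 1.54 with dTAG, lower with dTAG in both populations. In the 12 libraries of the Dppa4 experiment it ran from 0.616 to 1.24, with WT and KO overlapping.

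Summed over the 44 genes, the collagen level was 10085 in DMSO and 12304 in dTAG at 15 d and 6396 in Recovery, and Col18a1 alone made 4546, 4000 and 3300 of these. In the sorted groups it was 2213 in DMSO mESCs, 2576 in DMSO 2CLCs, 3138 in dTAG mESCs and 4498 in dTAG 2CLCs.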
